A study of Arabidopsis thaliana with 12 samples.

Results

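A set of 100 Arabidopsis thaliana probe sets had their lowest levels on the arrays harvested at night, at ZT18, and nowhere else in the day. A probe set is the group of array probes that reads 1 transcript, and ZT, or Zeitgeber time, is the number of hours since the lights came on. A probe set was taken when the highest of its 3 ZT18 values lay at least 0.5 below the lowest of its 9 values at ZT0, ZT6 and ZT12 on the log2 scale, and when that lowest value was at least 6. Of 22746 probe sets that were not chip controls, 102 met this rule, and PYE and AT1G47400 were left out by name. The ZT18 values therefore chose the members, and they are given below as a description with no test. The platform annotation paired 41 of the 100 with 1 gene and 1 with several genes. It did not list the other 58, which are unnamed here, so the named genes stand for fewer than 1 in 2 members (41.0%, against 54.3% of the 14016 tested probe sets).

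The study followed RNA levels through a light and dark cycle in seedlings of the CCA1-ox line, which overexpresses CIRCADIAN CLOCK ASSOCIATED 1 (CCA1). All 12 arrays held total RNA from the aerial part of Columbia seedlings, which had grown for 10 days on Murashige and Skoog agar (1% sucrose) in days with 16 h of light and nights of 8 h. Each of the times ZT0, ZT6, ZT12 and ZT18 had 3 arrays. ZT0 was the moment of lights on, ZT6 and ZT12 lay in the light, and ZT18 lay 2 h after lights off. Every group carried the CCA1-ox transgene, whose promoter is not given in the sources used here, and the wild type was not analysed here. The values therefore describe this line only, and nothing in them compares it with a plant whose clock is intact. The annotation names no probe set for CCA1, so its level was not checked.

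Many plant transcripts follow the day because light acts on them directly and because the circadian clock sets when they can be made. CCA1 is a MYB transcription factor that normally peaks around dawn and represses genes of the evening, and its constant expression is known to disturb many clock rhythms. In the dark, photoreceptor signalling declines, transcription factors that depend on light can fall, and carbon comes from stored starch in place of photosynthesis.

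A pair of facts about the arrays comes before the results. The title, source name and description gave every array the same time, whereas a harvest characteristic differed from them on 9 of 12 arrays; with times taken from that characteristic, 0 probe sets met the rule. The ZT18 arrays also stood apart in the chip's own controls. The log2 signal near the 3' end minus that near the 5' end of 3 control transcripts (actin, glyceraldehyde-3-phosphate dehydrogenase and ubiquitin) was 3.57, 4.06 and 4.02 on the ZT18 arrays (3.88 ± 0.27, SD, n = 3), against 2.84 to 3.51 on the other 9 (3.25 ± 0.21, SD, n = 9). These ranges did not overlap. This signal is known to depend on RNA quality and labelling, so each drop at ZT18 was also computed with it as a covariate. The labels do not say whether the plants of each replicate were grown apart. The spread that the p-values rest on may therefore be partly technical. In whole seedling tops, fewer cells of a type and less RNA per cell cannot be told apart.

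The members were lower at ZT18 than the mean of the other 3 times by a median of 2.76-fold, a log2 difference of -1.46. Over all 14016 tested probe sets the median log2 difference was near 0 (-0.0002). The drop ranged from 1.73-fold to 23.1-fold; 84 members were at least 2-fold lower, 24 at least 4-fold and 6 at least 8-fold. Under the fit with that covariate the median drop was 2.54-fold, with a range of 1.49-fold to 20.4-fold. All 100 remained lower at ZT18 there, 72 of them at least 2-fold, and the drop was smaller for 68. The members were chosen for this drop, so nothing is read from its remaining. The control signals of the ZT18 arrays did not overlap those of the others. This fit therefore cannot tell harvest time apart from RNA quality or labelling. The fold moved by over 1.5 times for 6 members, of which 1 has a named gene, AT3G45210. Night levels seldom reached the detection limit: the ZT18 mean lay under 6 for 15 members and under 4, taken as the detection limit, for 1. By the limma fit 100 of 100 members were called lower at ZT18 than at ZT12, where 24.4% of all tested probe sets were, and 100 of 100 lower than at ZT0, against 18.6%; the rule fixes these counts and nothing is read from them.

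**Figure D1:**
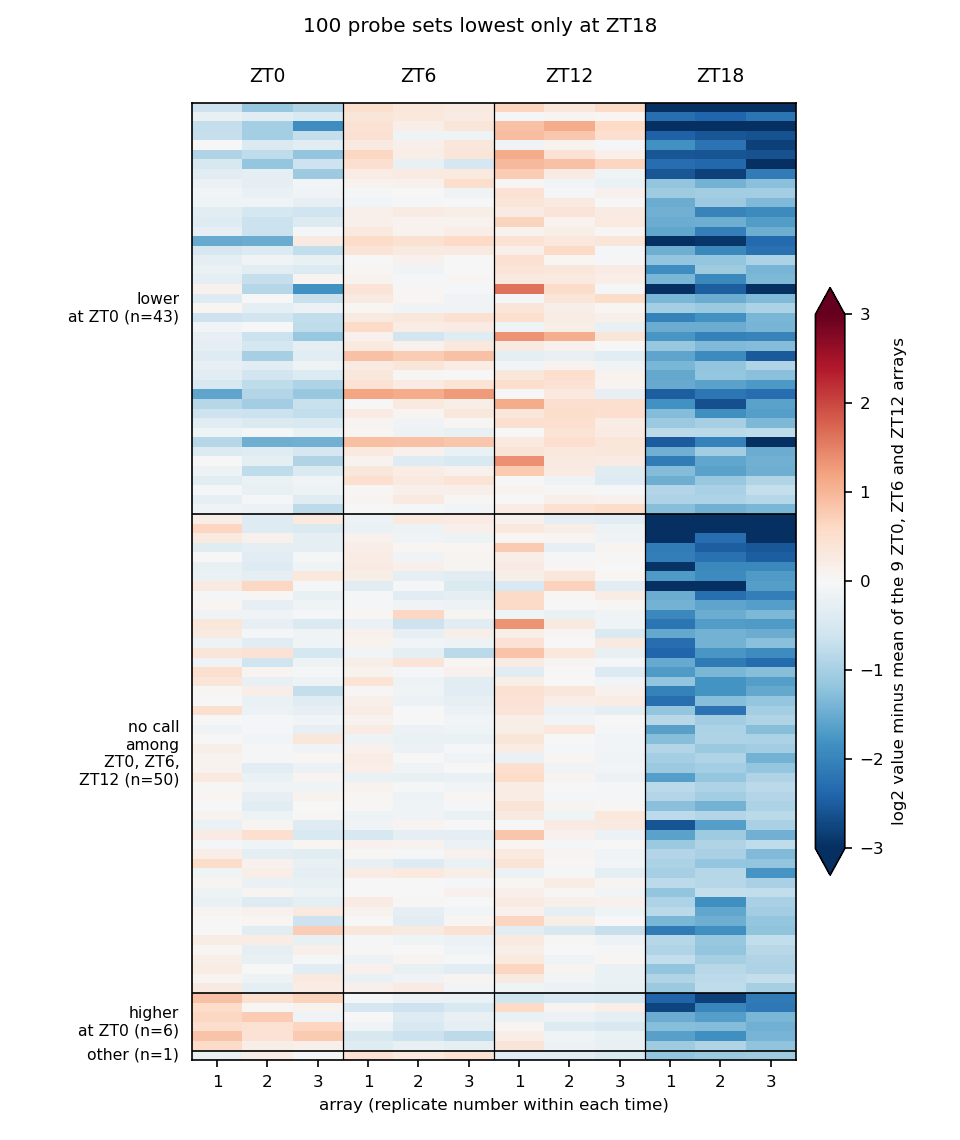
Log2 level of each of the 100 members (rows) on the 12 arrays (columns, grouped by time from ZT0 to ZT18), relative to the mean of its 9 ZT0, ZT6 and ZT12 arrays. All rows are low on the 3 ZT18 arrays by construction, and many are also somewhat low on the ZT0 arrays.

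The rule required a drop on each of the 3 ZT18 arrays, so its presence on all of them is no replication. Its median size was similar on the 3 arrays. Relative to its mean over the 9 other arrays, the median member stood at -1.48, -1.49 and -1.37 log2 on ZT18 replicates 1, 2 and 3. On the ZT0 arrays the same median was -0.06, -0.24 and -0.22, on the ZT6 arrays 0.12, -0.02 and -0.01, and on the ZT12 arrays 0.26, 0.09 and -0.03. The third ZT18 replicate was the highest of the 3 for 40 members, the first for 32 and the second for 28. Membership depended on single arrays all the same. Without ZT18 replicate 3 the rule took 151 probe sets and without ZT18 replicate 1 it took 150. All 100 members were among them each time by construction, since leaving out an array can only loosen the rule. The median SD of the members at ZT18 was 0.23, against 0.20 for all tested probe sets, and 11 members had an SD over 0.5 there.

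**Figure D2:**
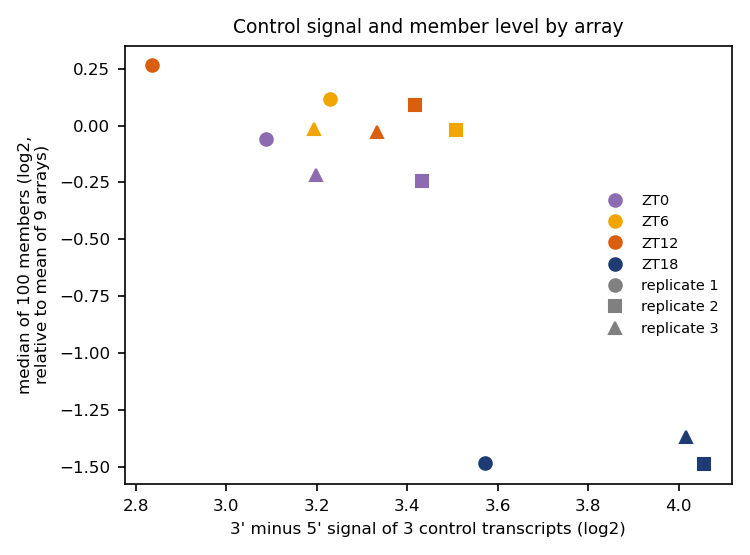
Median log2 level of the 100 members on each array, relative to the mean of the 9 ZT0, ZT6 and ZT12 arrays (vertical axis), against the 3' minus 5' signal of 3 control transcripts (log2, horizontal axis), with 1 point per array. The ZT18 arrays lie at -1.37 to -1.49 and have control signals of 3.57 to 4.06, above the 2.84 to 3.51 of the other 9 arrays.

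The member with the largest gap among named genes was HYH (AT3G17609), the bZIP transcription factor closest to HY5, which acts in light signalling downstream of the photoreceptors. HYH read 7.65, 8.55 and 6.78 on the ZT18 arrays. At ZT0 it read 11.10, 10.96 and 10.53, at ZT6 10.97, 10.72 and 10.67, and at ZT12 10.90, 10.92 and 10.74. Its ZT18 mean was 9.03-fold below the mean of the other times (9.06-fold with the covariate). The ZT18 replicates differed from each other by more than any others of this gene, but the highest of them still lay 1.99 below every other array. Between ZT0 and ZT6 the log2 difference was -0.08 (SE 0.32, adjusted p = 0.855) and between ZT0 and ZT12 it was -0.01 (SE 0.32, adjusted p = 0.979). Both SEs also draw on the ZT18 arrays, where the SD of HYH was 0.88. The ZT0 values of HYH overlapped those of ZT6 and ZT12.

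HYH was the only member among 3 measured genes of a 22-gene light signalling list. The others, AT3G52740 (BIC1) and AT3G44450 (BIC2), encode inhibitors of the cryptochrome photoreceptors, and both had another shape. BIC1 averaged 5.58 ± 0.50 at ZT0, 10.24 ± 0.38 at ZT6 and 10.59 ± 0.39 at ZT12, then 6.44 ± 0.59 at ZT18 (SD, n = 3 each). BIC2 averaged 3.28 ± 0.34 at ZT0, 9.08 ± 0.19 at ZT6 and 8.27 ± 0.24 at ZT12, then 4.54 ± 0.67 at ZT18. Both fell at ZT18 relative to ZT12 (adjusted p = 7.61e-07 for BIC1 and 7.71e-07 for BIC2), yet both had their lowest mean at ZT0. All 3 ZT0 values of BIC2 lay under the detection limit of 4, and so did 1 of its ZT18 values. With the ZT0 values raised to the limit, its ZT18 mean was 1.46-fold above that of ZT0. The limma call on the unraised values (adjusted p = 0.00496) thus compares levels near the limit. For BIC1 the log2 difference between ZT18 and ZT0 was 0.86 and did not pass (adjusted p = 0.0529), in a fit without the replicate number as a block.

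The 5 named transporter genes were 3.01-fold to 13.1-fold lower at ZT18 than the mean of the other times. AT3G21670 encodes NPF6.4, a member of the NRT1/PTR family, which moves nitrate, peptides and other small solutes across membranes. It read 6.20, 6.23 and 5.42 on the ZT18 arrays, 13.1-fold below the mean of the other times (11.5-fold with the covariate). At ZT0 it read 8.95, 8.65 and 7.80, at ZT6 10.09, 9.87 and 10.03, and at ZT12 10.55, 10.77 and 10.26. The gene thus stood at 3 separate heights, lowest at ZT18, intermediate at ZT0 and high in the light. It rose at ZT6 relative to ZT0 by 1.53 log2 (SE 0.28, adjusted p = 0.000436) and at ZT12 relative to ZT0 by 2.06 log2 (SE 0.28, adjusted p = 4.22e-05).

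AT2G26690 encodes the related NPF6.2. It read 9.18, 8.66 and 9.27 on the ZT18 arrays, against 10.09 to 11.02 on the other 9, a 3.22-fold difference. It rose at ZT6 relative to ZT0 by 0.51 log2 (SE 0.17, adjusted p = 0.02), a call lost without ZT6 replicate 1 or ZT0 replicate 2 and with no filter on low values or with arrays centred on their medians. At ZT12 relative to ZT0 it did not pass (0.42, adjusted p = 0.0511), and rose with the replicate number as a block (adjusted p = 0.0226). AT3G21670 was the only gene with a probe set here in a 20-gene list of nitrate uptake and assimilation. Of 6 NPF genes tested, a family added after values were seen, these 2 were members. Of the other 4, 3 fell at ZT18 relative to ZT12, with all 3 ZT18 values of AT1G59740 under the detection limit. These 3, AT1G68570 (adjusted p = 0.00578), GTR1 (adjusted p = 0.0293) and AT1G59740 (adjusted p = 0.0314), were called higher at ZT18 than at ZT0. The AT1G59740 means of 2.92 at ZT0 and 3.66 at ZT18 both lay under the detection limit, so nothing is read from its call. The glucosinolate transporter gene GTR1, averaged 7.46 ± 0.59 at ZT0, 9.75 ± 0.15 at ZT6 and 9.93 ± 0.09 at ZT12, then 8.18 ± 0.25 at ZT18.

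OCT5 (AT1G79410), an organic cation/carnitine transporter gene, read 5.74, 5.66 and 4.66 on the ZT18 arrays. It read 7.56, 6.86 and 7.40 at ZT0, 8.53, 7.81 and 7.53 at ZT6, and 8.99, 8.91 and 8.67 at ZT12. The ZT18 mean was 6.39-fold below that of the other times (4.48-fold with the covariate), and the ZT12 arrays lay above all others. OCT5 rose at ZT12 relative to ZT0 by 1.58 log2 (SE 0.31, adjusted p = 0.000789) and did not pass between ZT0 and ZT6 (0.68, SE 0.31, adjusted p = 0.0769). AT1G66760, of the MATE efflux family, read 4.93, 5.36 and 5.50 at ZT18, against 6.64 to 7.46 on the other 9 arrays, a 3.01-fold difference. AT2G41190, an amino acid transporter family gene, read 5.73, 6.02 and 6.65 at ZT18, against 7.18 to 8.59 on the other 9. Neither of these 2 passed in a comparison among ZT0, ZT6 and ZT12. With the replicate number as a block, AT2G41190 fell by 0.62 at ZT12 relative to ZT0 (adjusted p = 0.0393, against 0.0631 without the block).

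**Figure D3:**
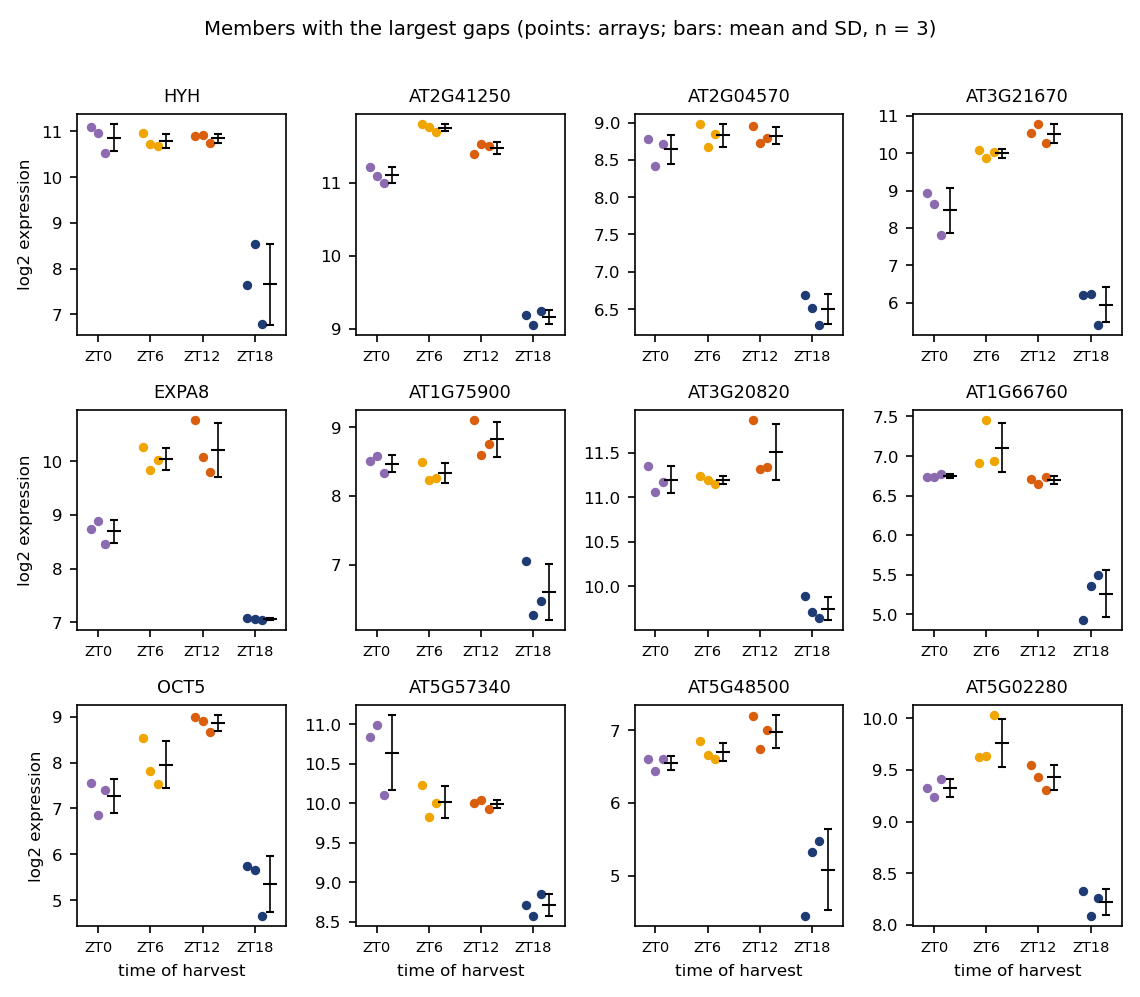
Log2 level of the 12 named members with the largest gaps, by time of harvest from ZT0 to ZT18, with 1 point per array and bars for mean and SD (n = 3). In every panel the highest ZT18 point lies below the lowest point of the other times; HYH stays near 10.5 to 11.1 at those times, whereas AT3G21670 is also low at ZT0.

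EXPA8 (AT2G40610) encodes an alpha-expansin, a protein that loosens cell walls during growth. Its ZT18 values of 7.08, 7.06 and 7.04 were nearly the same on the 3 arrays. At ZT0 it read 8.74, 8.88 and 8.46, at ZT6 10.26, 9.84 and 10.01, and at ZT12 10.77, 10.07 and 9.80. The night level was 6.01-fold below the mean of the other times (4.47-fold with the covariate), and the ZT0 level lay between those of night and day. EXPA8 rose at ZT6 relative to ZT0 by 1.35 log2 (SE 0.21, adjusted p = 0.000132) and at ZT12 relative to ZT0 by 1.52 log2 (SE 0.21, adjusted p = 5.19e-05). Of 6 alpha-expansin genes tested, a family also added after values were seen, EXPA8 was the only member. EXPA15 (log2 difference -2.55, adjusted p = 8.38e-07) and EXPA4 (-1.60, adjusted p = 0.00205) also fell at ZT18 relative to ZT12, whereas EXPA16 rose at least 7.16-fold (adjusted p = 5.64e-08), with all 3 ZT12 values under the detection limit.

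Of the GDSL-type lipase genes, AT2G04570 read 6.69, 6.52 and 6.29 on the ZT18 arrays, against 8.42 to 8.98 on the other 9. That was a 4.81-fold difference (3.73-fold with the covariate). The related AT1G75900 read 7.05, 6.27 and 6.47 at ZT18, against 8.23 to 9.11 on the others, a 3.84-fold difference (2.68-fold with the covariate). Neither passed among ZT0, ZT6 and ZT12, and their ranges over those 9 arrays spanned less than 1 log2 unit. AT3G20820, a leucine-rich repeat protein gene, followed the same course, with 9.89, 9.71 and 9.64 at ZT18 and 11.06 to 11.87 on the other 9 arrays. At ZT12 relative to ZT0 it did not pass (0.31, adjusted p = 0.0833) and rose with the replicate number as a block (adjusted p = 0.0239).

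Genes of enzymes were spread over several pathways. AT2G41250, which encodes a haloacid dehalogenase-like hydrolase, had the second largest named gap. It read 9.19, 9.05 and 9.24 at ZT18. The other times gave 11.21, 11.09 and 10.99 at ZT0, 11.80, 11.76 and 11.70 at ZT6, and 11.39, 11.53 and 11.50 at ZT12. The arrays of the 4 times did not overlap on this gene, with a 4.86-fold drop at ZT18 (4.96-fold with the covariate) and replicate spreads of 0.05 to 0.11. It rose at ZT6 relative to ZT0 by 0.65 log2 (SE 0.09, adjusted p = 5.74e-05) and at ZT12 relative to ZT0 by 0.38 log2 (SE 0.09, adjusted p = 0.00381). At ZT12 relative to ZT6 it did not pass (-0.28, adjusted p = 0.129). AT5G59480, of the same hydrolase superfamily, read 9.59, 9.02 and 9.61 at ZT18, against 10.27 to 11.26 on the other arrays. It rose at ZT12 relative to ZT0 (0.55, adjusted p = 0.0244), a call lost without replicate 1 or 2 of either time and with no filter on low values.

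AT5G55070 and AT3G27240 each encode a mitochondrial protein of respiration. AT5G55070, a subunit of the 2-oxoglutarate dehydrogenase complex of the citric acid cycle, read 5.81, 6.80 and 6.90 at ZT18, against 7.69 to 8.51 on the other 9 arrays. AT3G27240, cytochrome c1 of the respiratory chain, read 7.73, 7.82 and 7.69 at ZT18, against 8.52 to 9.33. The log2 difference at ZT18 from the mean of the other times was -1.56 for AT5G55070 (-1.83 with the covariate) and -1.09 for AT3G27240 (-0.67 with the covariate). Neither gene passed among the other times. GR1, a glutathione reductase gene, was among the shallowest members, with 10.63, 10.54 and 10.79 at ZT18 and 11.30 to 11.67 on the other arrays, a 1.82-fold difference. AT3G25580, of the thioredoxin superfamily, read 7.93, 7.95 and 7.95 at ZT18, against 8.79 to 9.44.

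Enzymes that modify small molecules included IAGLU (AT4G15550), which attaches glucose to the auxin indole-3-acetic acid. IAGLU read 8.14, 8.51 and 8.44 at ZT18, against 9.10 to 10.19 on the other 9 arrays, a 2.49-fold difference. It rose at ZT6 relative to ZT0 by 0.56 log2 (SE 0.14, adjusted p = 0.00499) and at ZT12 relative to ZT0 by 0.76 log2 (SE 0.14, adjusted p = 0.000637). UGT74D1, another UDP-glucosyltransferase gene, was lower by 1.87-fold at ZT18, with 9.11, 9.09 and 9.16 there and 9.66 to 10.29 elsewhere. UGT74B1 and AT2G31790 (UGT74C1), related genes of glucosinolate synthesis, were also tested and were no members. The UGT74 and UGT75 genes were looked at as a family added after values were seen. UGT74B1 had its lowest mean at ZT0 (7.78 ± 0.65) and fell at ZT18 (8.22 ± 0.42) relative to ZT12 (9.65 ± 0.15, adjusted p = 0.00105). AT2G31790 likewise had its lowest mean at ZT0 (8.03 ± 0.24) and fell at ZT18 (8.26 ± 0.46) relative to ZT12 (9.86 ± 0.11, adjusted p = 3.96e-05). AT2G39020, the gene of the N-acetyltransferase NATA2, read 7.01, 7.04 and 7.25 at ZT18, against 7.91 to 8.66 elsewhere. AT1G15060, of the alpha/beta hydrolase family, was lower at ZT18 by 2.38-fold.

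Other members act in signalling, trafficking, chromatin or RNA processing. AT5G53140 encodes a type 2C protein phosphatase, AT5G20885 a RING finger protein and AT3G59910 an ankyrin repeat protein, and their drops were 1.84-fold, 2.36-fold and 2.58-fold. AT5G02280, a SNARE-like protein gene, read 8.33, 8.09 and 8.26 at ZT18, against 9.24 to 10.03 on the other 9 arrays. AT5G42060, of the chromatin-associated DEK family, read 8.32, 7.70 and 7.86 at ZT18, against 9.17 to 9.91. AT3G05340, a pentatricopeptide repeat gene of the family that processes organelle RNA, read 5.30, 5.51 and 5.95 at ZT18, against 6.58 to 7.83. AT5G03230 and AT3G45210 share the DUF584 domain of the senescence regulator family. AT5G03230 read 9.85, 10.09 and 10.35 at ZT18, against 11.17 to 12.33 on the other arrays. The drop of AT3G45210 was 2.75-fold and 1.78-fold with the covariate.

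The deepest drops lay in probe sets that the annotation does not list. Probe set 267567_at read 5.49, 6.02 and 5.39 at ZT18, against 9.77 to 10.46 on the other 9 arrays, a 23.1-fold difference (20.1-fold with the covariate). Probe set 247452_at read 2.95, 3.91 and 3.20 at ZT18, all under the detection limit, against 7.34 to 8.43 on the others. Its difference was at least 13.8-fold, with each ZT18 value raised to the limit of 4. Among the members whose gap was closest to the rule's limit, the last inside were UGT74D1, AT5G45310 and AT3G15760, each with a gap of 0.50. The first outside were AT2G41000 with a gap of 0.4984, an unlisted probe set with 0.4944 and AT3G48460 with 0.4915.

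What the rule did not use is the order of the other 3 times, apart from their lowest array. Most members had their highest mean at ZT12 (56), 29 had it at ZT6 and 15 at ZT0. The lowest of the 3 other times was ZT0 for 63 members, ZT6 for 24 and ZT12 for 13. The matching shares over all tested probe sets were not computed, so nothing particular to the members is read from these counts. By limma, 31 of 100 members rose at ZT6 relative to ZT0, where 27.6% of all tested probe sets did, and 6 fell, where 28.4% did. At ZT12 relative to ZT0, 35 rose, against 25.6% of all, and 5 fell, against 28.4%. The share that rose was thus near or somewhat above the background, and the share that fell was well below it. Among 10904 probe sets whose lowest value on these 9 arrays was also at least 6, the background was 26.7% higher and 30.3% lower at ZT6 relative to ZT0, with 30.2% lower at ZT12. All these calls took their spread from all 12 arrays, with ZT18 included. A fit on the 9 arrays of ZT0, ZT6 and ZT12 alone gave 36 members higher and 6 lower at ZT6, relative to ZT0. At ZT12 it gave 40 higher and 7 lower. Background shares for that fit are not given here.

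Between ZT6 and ZT12, 1 member rose, against 1.08% of all tested probe sets, and 3 fell, against 1.04%. The median log2 difference of the members was 0.16 for ZT6 relative to ZT0 (-0.01 for all tested probe sets), 0.11 for ZT12 relative to ZT6 (-0.03) and 0.28 for ZT12 relative to ZT0 (-0.05). Of the 41 named members, 16 rose and 2 fell at ZT6 relative to ZT0, against 27.6% and 28.4% of all tested probe sets. At ZT12 relative to ZT0, 18 rose and 2 fell, against 25.6% and 28.4%.

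**Figure D4:**
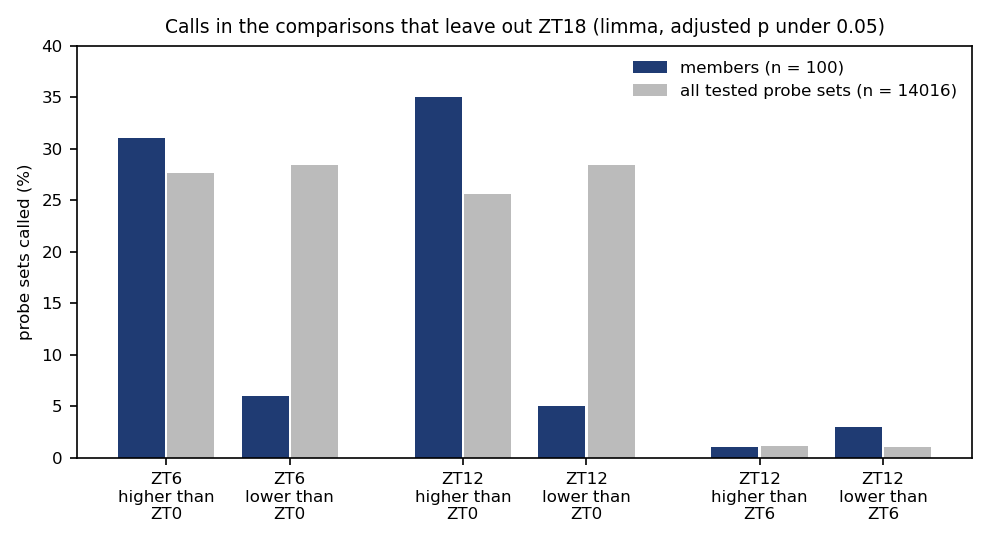
Percent of the 100 members (dark bars) and of all 14016 tested probe sets (grey bars) called higher or lower by limma in the 3 comparisons that leave out ZT18, at an adjusted p under 0.05. The members called lower than at ZT0 are 6% at ZT6 and 5% at ZT12, against 28.4% of all tested probe sets in both comparisons.

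In 43 members, 22 of them named, the ZT0 level was also called below that of at least 1 light time, with no call the other way. The call was made at both ZT6 and ZT12 for 22, at ZT6 only for 8 and at ZT12 only for 13. Of all tested probe sets 30.9% had such calls, and 30.1% of those whose lowest value on the 9 arrays was at least 6. Their ZT18 level was at least 1.73-fold below the mean of the other times, with a median of 3.02-fold. The largest rise after lights on among named members was that of AT2G15020. It read between 6.28 and 6.90 at ZT0, 8.65, 8.64 and 8.58 at ZT6, 8.05, 8.25 and 8.12 at ZT12, and 5.26, 5.73 and 4.31 at ZT18. It rose 4.38-fold at ZT6 relative to ZT0 (SE 0.28 on the log2 scale, adjusted p = 3.9e-05) and at ZT12 relative to ZT0 by 1.65 log2 (SE 0.28, adjusted p = 0.000317).

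AT1G78070, a WD40 repeat protein gene, read 6.92, 6.94 and 8.70 at ZT0, 8.97, 8.89 and 9.02 at ZT6, 8.87, 8.75 and 8.79 at ZT12, and 5.17, 5.51 and 6.10 at ZT18. The third ZT0 array stood close to the light values and the other two far below them. The rise at ZT6 relative to ZT0 was 1.44 log2 (SE 0.38, adjusted p = 0.00621) and 2.03 without ZT0 replicate 3. At ZT12 relative to ZT0 it was 1.28 log2 (adjusted p = 0.0125) and 1.87 without that array, a call lost without ZT0 replicate 1 or 2 and with no filter on low values.

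AT3G01060 was the only named member that passed between the light times. It read 10.03, 9.42 and 10.07 at ZT0, 11.30, 11.18 and 11.30 at ZT6, 10.15, 10.19 and 10.07 at ZT12, and 8.82, 8.51 and 7.90 at ZT18. It rose 2.68-fold at ZT6 relative to ZT0 (SE 0.21 on the log2 scale, adjusted p = 9.33e-05) and fell by 1.12 log2 at ZT12 relative to ZT6 (adjusted p = 0.0206). The fall was lost when any 1 of the 6 arrays of those times was left out and with no filter on low values. AT5G35460 read 8.58 to 8.75 at ZT6 and 8.42 to 8.86 at ZT12, against 7.42 to 7.85 at ZT0, and rose by 1.07 log2 in both comparisons with ZT0 (SE 0.15). AT3G05340 rose by 0.99 at ZT6 (SE 0.17, adjusted p = 0.000289) and by 0.94 at ZT12 (SE 0.17, adjusted p = 0.000454), each relative to ZT0. AT1G30260 rose at ZT12 (0.81, adjusted p = 7.59e-05) and at ZT6 (0.40, adjusted p = 0.0112, lost with arrays centred on their medians), again relative to ZT0, and did not pass between ZT6 and ZT12 (0.41, adjusted p = 0.0864).

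AT1G15060 rose at ZT6 (0.61, adjusted p = 0.00183) and at ZT12 (0.49, adjusted p = 0.00763), and AT3G15760 rose at ZT12 (0.78, adjusted p = 0.00136), all relative to ZT0 and under every alternative tried. AT3G45210 rose by 0.68 at both times (adjusted p = 0.0285 at ZT6 and 0.0293 at ZT12). Without ZT0 replicate 2 or 3 neither call of AT3G45210 held, nor without ZT6 replicate 1 or 2 at ZT6, nor without ZT12 replicate 1 or 2 at ZT12. Both calls were also lost with no filter on low values, and the one at ZT6 with arrays centred on their medians. UGT74D1 rose by 0.34 at ZT6 (adjusted p = 0.018) and by 0.31 at ZT12 (adjusted p = 0.0299). The calls of UGT74D1 were lost with arrays centred on their medians, without ZT0 replicate 3, without ZT6 replicate 2 at ZT6, and without ZT0 replicate 1 or ZT12 replicates 2 or 3 at ZT12.

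Of the members called at 1 time only, AT5G02280 rose at ZT6 (0.43, adjusted p = 0.0129), a call lost without ZT6 replicate 3 and with arrays centred on their medians. GR1 rose at ZT6 (0.25, adjusted p = 0.0393), a call lost without replicate 2 or 3 of ZT0 or ZT6 and without ZT12 replicate 2. It was also lost with arrays centred on their medians and without the variance trend. AT4G27840 rose at ZT12 (0.39, adjusted p = 0.0189), a call lost without ZT12 replicate 1 or 2 or ZT0 replicate 3. AT3G25580 (0.31, adjusted p = 0.0471) and AT2G39020 (0.36, adjusted p = 0.049) rose at ZT12 only narrowly, and those calls were lost under 12 and 13 of 19 alternatives, among them leaving out any 1 ZT0 array. That of AT2G39020 was also lost with the replicate number as a block (adjusted p = 0.058).

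**Figure D5:**
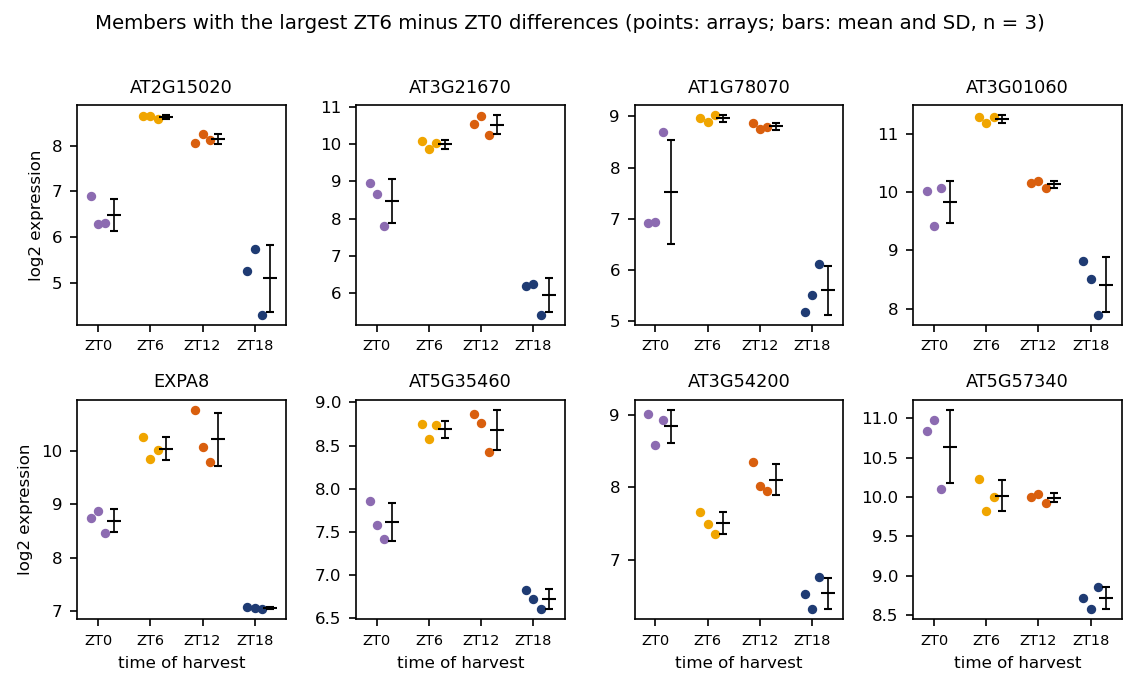
Log2 level of the named members with the largest changes at ZT6 relative to ZT0, by time of harvest from ZT0 to ZT18, with 1 point per array and bars for mean and SD (n = 3). AT2G15020 has ZT6 values of 8.58 to 8.65, against 6.28 to 6.90 at ZT0, whereas AT3G54200 runs the other way with 7.35 to 7.66 at ZT6, against 8.58 to 9.02 at ZT0.

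In 6 members, 2 of them named, the ZT0 level was called above that of ZT6, and in 4 of the 6 also above that of ZT12. Among all tested probe sets 33.4% were called above at least 1 light time in this way, with no call the other way. AT3G54200, a hydroxyproline-rich glycoprotein family gene, read 9.02, 8.58 and 8.93 at ZT0, 7.66, 7.49 and 7.35 at ZT6, 8.34, 8.01 and 7.95 at ZT12, and 6.53, 6.32 and 6.75 at ZT18. Its values at lights on were the highest of the day and those at ZT18 the lowest. AT3G54200 fell by 1.34 log2 at ZT6 relative to ZT0 (SE 0.17, adjusted p = 2.16e-05) and by 0.74 at ZT12 relative to ZT0 (SE 0.17, adjusted p = 0.00227). AT5G57340 read 10.83, 10.98 and 10.10 at ZT0, 10.23, 9.82 and 10.00 at ZT6, 10.00, 10.03 and 9.93 at ZT12, and 8.72, 8.57 and 8.85 at ZT18. It fell by 0.62 at ZT6 (adjusted p = 0.0141) and by 0.65 at ZT12 (adjusted p = 0.0115), each relative to ZT0. Both calls of AT5G57340 were lost without ZT0 replicate 1 or 2, and the first also without ZT6 replicate 2.

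A further 50 members, 17 of them named, passed none of the 3 comparisons, and the 1 remaining member, unlisted, rose at ZT6 and fell at ZT12, each relative to ZT0. Of all tested probe sets 35.6% passed none, and 34.3% of those with a lowest value of at least 6. Missing the threshold does not show that their levels were equal at those times, and the spread in this fit includes that of the ZT18 arrays. These 50 were lower at ZT18 by 1.74-fold to 23.1-fold, with a median of 2.48-fold. Besides HYH they included AT2G04570, whose ZT12 and ZT6 values differed from ZT0 by 0.18 and 0.19 log2 (SE 0.15). TET3, which encodes a tetraspanin of the plasma membrane, was the shallowest named member of this group, with 8.26, 8.38 and 8.46 at ZT18 and 8.97 to 9.46 on the other 9 arrays, a 1.74-fold difference. AT4G27680, a P-loop nucleoside triphosphatase gene, was also shallow and steady, with 8.03, 7.97 and 7.86 at ZT18, against 8.60 to 9.04. AT5G48500 read 4.45, 5.32 and 5.48 at ZT18, against 6.44 to 7.19.

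Over 12 pathway lists with 206 genes, the annotation named a probe set for 29, all of which were tested, and 2 of these were members (6.90%), HYH and AT3G21670. Of all tested probe sets 0.713% were members, and the lists are no independent sample of them. Of the other 27 genes, 11 were lower and 6 higher at ZT18 than at ZT12, where 24.4% and 26.1% of all tested probe sets were. The time of the lowest mean was ZT0 for 13, ZT6 for 9, ZT12 for 2 and ZT18 for 3. All 4 measured genes of aliphatic glucosinolate synthesis fell at ZT18 relative to ZT12 and all 4 had their lowest mean at ZT0. One was BCAT4, an aminotransferase of methionine chain elongation, which averaged 8.27 at ZT0, 11.28 at ZT6 and 11.72 at ZT12, then 9.51 at ZT18. The 5 measured genes of ribosome biogenesis all had their lowest mean at ZT6. Of 4 clock-related genes, 2 fell and 2 rose at ZT18 relative to ZT12, and of 5 chlorophyll and haem genes 2 fell. No gene of the iron-deficiency, brassinosteroid or aquaporin lists had a named probe set.

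The labelled tissue could be checked on few markers. RCA, which encodes rubisco activase and was the only measured gene of a 10-gene leaf list, averaged 13.7 to 14.3 at the 4 times, against a detection limit of 4. Of a 9-gene root list 2 genes had a named probe set. One of these did not reach 4 on at least 3 arrays and was not tested. The other, the beta-glucosidase gene PYK10, averaged 12.7 to 13.3. It was 13.19 ± 0.19 at ZT18, against 13.33 ± 0.12 at ZT12 (adjusted p = 0.359). The part of root tissue in the members' drop was not tested.

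The named members did not sit beside each other in the genome. Each of the 41 has 2 adjacent genes in the RefSeq gene order of assembly TAIR10.1, and 25 of these 82 neighbours were tested. None of the 25 (0) was a member, where 0.71% of all tested probe sets were, so little can be read from this count. Members without a named gene could not be placed. At ZT18 relative to ZT12, 7 of them were lower (28%) and 5 higher (20%), against 24.4% and 26.1% of all tested probe sets. The median ZT18 difference from the mean of the other times was -0.05 log2 for these neighbours. One neighbour, AT1G30250, chosen here after its values were seen, lies next to the member AT1G30260 and averaged 7.05 at ZT0, 4.95 at ZT6 and 5.60 at ZT12, then 4.36 at ZT18.

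Outside the members, the probe sets whose course over the 12 arrays was most like the members' mean were those of AT2G29340 (Pearson's r = 0.97), AT4G24130 (0.95) and the alpha-tubulin gene TUA6 (0.95). These correlations describe 12 arrays that fall into 4 times and share the ZT18 drop, and carry no test. All had gaps under the limit. TUA6 averaged 11.87 ± 0.20 at ZT18, against 12.47 ± 0.05 at ZT0, 12.48 ± 0.06 at ZT6 and 12.61 ± 0.02 at ZT12 (SD, n = 3 each). AT2G29340 averaged 8.75 ± 0.10 at ZT18, against 9.45 ± 0.12 at ZT0, 9.46 ± 0.03 at ZT6 and 9.65 ± 0.03 at ZT12.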

How the data were processed

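Each array had 1 deposited value per probe set, on the log2 scale; the submitters' processing notes name R 3.1, GCRMA and affy 1.42.3 with no role or order, per the labels. The sources used here give neither GCRMA settings nor a genome build, so no coordinates are printed. Groups came from sample titles. The array held 22810 probe sets with 64 chip controls, which were not tested, and 14016 that reached 4 on at least 3 arrays were tested, all 100 members among them. Comparisons used limma 3.58.1 in R 4.3.3 (lmFit with a mean per time over all 12 arrays, eBayes with trend, two-sided, Benjamini-Hochberg over 14016, threshold 0.05). Every adjusted p comes from this fit, except those given with the replicate number as a block, which was added to the same fit. The code was tested on simulated data. The number of arrays limits the precision. Names came from the platform annotation, updated through RefSeq (TAIR10.1).

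Members and lists were chosen with earlier results of these data known. The text named members with 1 gene: the 25 largest gaps, the 6 largest rises and 6 largest falls per comparison among ZT0, ZT6 and ZT12, list members, the 3 members nearest to the limit and 3 probe sets outside it, and the 3 most alike probe sets outside. The other named members, and single genes named from lists, were picked with their values in view. Promoter sequences were not used here.

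Whether replicate numbers pair arrays was read from the data alone, since the labels give them no shared origin. Deviations from the group means correlated at 0.19 to 0.40 in all 3 same-numbered pairs of ZT12 and ZT0, which were taken as paired. They correlated at 0.01 to 0.04 between ZT6 and ZT0 and at -0.15 to 0.03 between ZT12 and ZT6, which were not. Blocked values stand beside results of ZT12 relative to ZT0 where they change a call. Same-numbered pairs of ZT18 and ZT0 also correlated, at 0.185 to 0.322. No blocked values are given for ZT18 relative to ZT0, so the adjusted p-values of that comparison do not take this pairing into account.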

Additional observations from a re-analysis of the deposited data

How the results depend on the processing

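The number of members followed the rule's own limits, with 253 at a gap of at least 0.25 and 21 at a gap of at least 1, and was 0 with times from the harvest characteristic. It lay between 101 and 151 when single arrays were left out. A lowest value of 4 or 8 in place of 6 gave 128 and 68, and median centring gave 102, of which 94 were shared. The single member higher at ZT12 than at ZT6 was no longer called (0) with no filter and without the eBayes trend, and the count ran between 0 and 2 with single arrays left out. For members lower at ZT12 than at ZT6 (3) that range was 1 to 4. Leaving out single arrays gave 27 to 34 members higher and 4 to 9 lower at ZT6 than at ZT0, and 25 to 39 higher and 4 to 7 lower at ZT12 than at ZT0. Of 39 calls on named members, 23 held under all 19 alternatives, 16 were lost under at least 1 and 0 reversed; the cause was not tested. Alternatives added after seeing the data were the background over bright probe sets and the ZT18 drops with the 3' minus 5' covariate.

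Over 18 same-numbered pairs of arrays, r of the deviations from group means ran between -0.15 and 0.40, with 16 over 0 and 9 over 0.1. Over 36 pairs of different number it ran between -0.35 and 0.19, with 14 over 0 and 6 over 0.1. With the replicate number as a block, 34 members were higher and 7 lower at ZT6 than at ZT0, 38 and 6 at ZT12 than at ZT0, and 4 and 3 at ZT12 than at ZT6. Between ZT12 and ZT0, where the arrays were taken as paired from these correlations alone, the block changed the call of 4 named members, as given with them, and of no other named member.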

Other observations

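The same rule, applied to each of the other times, took 314 probe sets lowest only at ZT0, 25 lowest only at ZT6 and 12 lowest only at ZT12. Turned round, it took 220 probe sets highest only at ZT0, 33 for ZT6, 28 for ZT12 and 155 for ZT18. A low confined to ZT18 was thus met less often in number than a low confined to ZT0 or a high confined to ZT18. These counts carry no test.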
